A study of Mus musculus with 4 samples.

Results

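The membrane of the red cell and the spectrin network beneath it are represented here by 8 genes, namely Sptb, Ank1, Slc4a1, Epb41, Epb42, Rhag, Rhd and Kel. They were taken by gene symbol from the 55401 genes of an RNA-seq experiment on mouse tibial bone marrow, where they hold 62 of 142604 annotated transcripts. No rule on their values was used, but earlier results of these data were known when they were chosen. All libraries came from male C57/B6 mice that were given a high-fat diet (HFD) from the age of 8 weeks, for 6 weeks before the groups were formed and also afterwards. The obesity group (Ob, 9 mice) did not run, whereas the second group, obesity combined with exercise (Ob + Exe, 9 mice), had treadmill runs of 1 h on 6 days per week over 12 weeks. Of these mice, 2 per group were sequenced. No library analysed here came from mice on a regular diet, so Ob is the control throughout.

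The red cell has no nucleus and no internal cytoskeleton of the usual kind, and its shape is held by a net of spectrin on the inner face of the membrane. Beta-spectrin (Sptb) is a strand of this net, and ankyrin-1 (Ank1) ties the net to band 3 (Slc4a1), the anion exchanger of the red cell, with the help of pallidin, the product of Epb42. Where the spectrin tails meet short actin filaments, the product of Epb41 strengthens the junction. Rhag and Rhd encode the Rh proteins, which sit with band 3 in the same ankyrin-bound complex, and Kel encodes the Kell blood group glycoprotein. Erythroblasts, the nucleated precursors of red cells, make these proteins in the bone marrow, and inherited defects of several of them cause spherocytosis or elliptocytosis.

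The values are FPKM, the fragments of a transcript set relative to its length and to all fragments of the library, summed over the transcripts of a gene and divided by a scaling factor of each library between 0.945 and 1.04. They are called scaled FPKM below, they are levels per length, and they can be compared between genes, although short transcripts can add much FPKM from few reads. The aligned bases behind them amounted to 9952 Mb and 9639 Mb for the Ob libraries and to 8806 Mb and 8702 Mb for the Ob + Exe libraries. The libraries are named Ob 1, Ob 2, Ob + Exe 1 and Ob + Exe 2 after the replicate numbers of the labels. The labels name bone marrow as tissue but also mesenchymal stem cells and fibroblast. The libraries were rich in globin RNA, with 22541 to 23931 scaled FPKM of Hba-a1 in 3 libraries and 20060 in Ob + Exe 2, and the 8 stroma and fibroblast markers summed to 109 to 164 scaled FPKM against 56075 to 83962 for 14 late erythroid markers. In such a mixture of cells, fewer erythroblasts and less RNA per erythroblast cannot be told apart.

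The 2 forms of Epb41 that carry the clearest difference between the groups differ by 2 exons at the 5′ end and by an internal exon of 63 bases. The internal exon lies at chr4:131962924-131962986 on the minus strand of GRCm38, is annotated as coding and adds 21 codons to the spectrin-actin-binding domain. As background, erythroblasts are known to take up this exon late in their maturation. The GRCm38 sequence around it is shown because 1 of the forms lacks this exon, which is annotated as coding in the other, with 30 bases of each neighbouring exon in lower case and the exon in capitals, followed by the same junction without it.
ENSMUST00000137846.7: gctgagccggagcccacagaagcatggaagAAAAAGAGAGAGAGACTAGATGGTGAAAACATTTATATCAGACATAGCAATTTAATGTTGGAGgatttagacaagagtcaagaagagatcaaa
ENSMUST00000146021.7: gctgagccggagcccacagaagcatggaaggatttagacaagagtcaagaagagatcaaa

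All 8 genes were well expressed, and none of them was called different between Ob + Exe and Ob. A call required both an unadjusted p under 0.05 in limma and a log2 fold change larger than 1 in size, as in the methods of the study, and the fit covered 18596 genes whose mean FPKM reached 0.1. Of those genes 3.74% were called. The log2 fold changes of Ob + Exe over Ob were positive for 3 of the 8 genes and negative for 5, with a median of -0.04 beside a median of -0.02 over all genes tested. The median of the 8 genes was -0.34 without Ob + Exe 2 and 0.15 without Ob + Exe 1. No gene of the whole table passed a Benjamini-Hochberg adjusted p of 0.05 in limma, and 940 had an unadjusted p under 0.05. With 2 libraries against 2, an exact permutation test of a single gene cannot give a two-sided p below 0.333.

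In order of their mean over the 4 libraries, Slc4a1 had the highest level with 357 scaled FPKM, followed by Epb41 with 222, Kel with 170, Rhd with 128, Rhag with 118, Epb42 with 92.8, Ank1 with 51.0 and Sptb with 41.9. Between neighbours in this order, the values of the libraries overlapped except between Slc4a1 and Epb41 and between Epb42 and Ank1. The place of Kel above Rhd and Rhag depended on short transcripts. Its 19-exon transcript alone had 87.7 and 133.7 scaled FPKM in Ob against 132.3 and 83.6 in Ob + Exe. Between 8529 and 122856 read equivalents (coverage times length divided by the read length) stood behind each value of a gene.

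**Figure D1:**
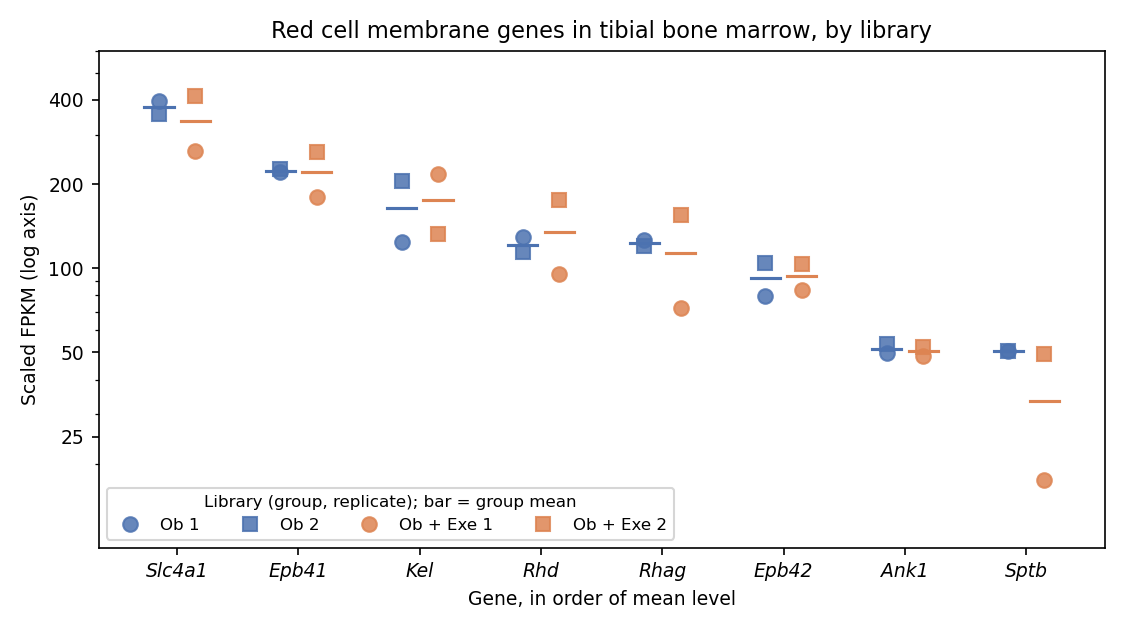
Scaled FPKM of the 8 genes (log axis) in each of the 4 libraries, with genes in order of mean level and bars at the group means. The Ob + Exe points lie further apart than the Ob points for 6 genes, and Ob + Exe 1 is the lowest library for Sptb, Ank1, Slc4a1, Epb41, Rhag and Rhd.

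Sptb, the beta-spectrin of the net (chr12:76580488-76710547, minus strand of GRCm38), had 50.6 and 50.4 scaled FPKM in Ob against 17.5 and 49.3 in Ob + Exe. The Ob libraries were almost the same, Ob + Exe 1 was far below them and Ob + Exe 2 was just below them. The means were 50.5 ± 0.160 (SD, n = 2) and 33.4 ± 22.5 (SD, n = 2), the log2 fold change was -0.78 with a standard error of 0.48, and limma gave an adjusted p of 0.959 (0.386 to 1 over the alternatives). Sptb was the 1 gene of the 8 whose groups did not overlap, while 32.6% of all genes tested had groups that did not overlap. The difference rested on Ob + Exe 1. Without that library the log2 fold change was -0.04, and without Ob + Exe 2 it was -1.54 and passed the thresholds, with an adjusted p of 0.386 in limma. In this setting the lone Ob + Exe library was assumed to vary like the Ob libraries, and 9.96% of all genes were called.

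The low value of Sptb in Ob + Exe 1 came with the loss of 1 of its transcripts from the estimates. The longer transcript ENSMUST00000021458.12, with 36 exons, had 27.1 and 18.3 scaled FPKM in Ob against 17.5 and 23.3 in Ob + Exe. The shorter transcript ENSMUST00000166101.1, with 32 exons and another 3′ end, had 23.4 and 32.1 in Ob, was listed at 0 in Ob + Exe 1 and had 26.0 in Ob + Exe 2. The longer form thus spanned overlapping values in both groups, and the shorter form separated Ob + Exe 1 from the other libraries. With the most abundant transcript alone in place of the sum, the log2 fold change of Sptb was -0.18. StringTie, the program behind the values, divides the reads over a gene among its annotated transcripts, and whether reads or their division gave the 0 was not tested.

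Ank1, the ankyrin that holds spectrin to the membrane (chr8:22974844-23150497, plus strand), had the smallest spread over the 4 libraries among the 8 genes when its transcripts were summed. It had 49.7 and 53.6 scaled FPKM in Ob against 48.4 and 52.4 in Ob + Exe, so that the groups overlapped almost fully. The log2 fold change was -0.03 with a standard error of 0.19 in limma. It was -0.75 with a standard error of 1.46 on the most abundant transcript alone and -0.46 with 0.19 on protein-coding transcripts alone, and Ank1 was not called in either. Within the gene, the abundant transcripts begin at 2 places on the plus strand of chromosome 8. The 3 transcripts that begin between 23035099 and 23035231 held 78.6% and 73.0% of the FPKM of Ank1 in Ob against 65.1% and 69.0% in Ob + Exe. The 5 that begin between 23058259 and 23058525 held 17.7% and 23.9% in Ob against 32.0% and 29.3% in Ob + Exe. The groups did not overlap in either share, but the gap between them was smaller than the difference between the Ob libraries. How often other genes had gaps of this size is not given here. Transcripts that begin at 23139030 or beyond, at the 3′ end of the gene, held 0.391% to 2.28%.

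Single transcripts of Ank1 varied more than their sums. ENSMUST00000141784.8 had 28.4 and 9.0 scaled FPKM in Ob against 2.62 and 35.7 in Ob + Exe, while ENSMUST00000117296.7 had 10.2 and 17.4 in Ob against 28.9 and 0.530 in Ob + Exe. These 2 forms share their start region and replaced each other between libraries of the same group, so neither followed the groups. ENSMUST00000123418.7, annotated as a target of nonsense-mediated decay, held 7.85% and 7.11% of the gene in Ob against 29.3% and 27.8% in Ob + Exe, with a gap of 20.0 percentage points between the groups. The protein-coding ENSMUST00000084038.10, with the same start region and the same end, went the opposite way. It held 7.59% and 14.1% in Ob and 0 in both Ob + Exe libraries. Whether reads or their division between these forms gave the shares was not tested. The gene Gm15816 shares up to 466 exonic bases with Ank1 on the opposite strand and had 2.05 to 8.54 scaled FPKM. The library kit is not stated to mark strand, so reads from the overlap cannot be assigned with certainty.

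Slc4a1, the band 3 anion exchanger (chr11:102348824-102366203, minus strand), had 396 and 357 scaled FPKM in Ob against 263 and 412 in Ob + Exe. Ob + Exe 1 was the lowest of the libraries and Ob + Exe 2 the highest, with both Ob libraries between them. The log2 fold change was -0.19 with a standard error of 0.29 (limma, adjusted p = 0.975), and without Ob + Exe 1 it was 0.12. A single transcript of 20 exons held 99.7% to 99.8% of the FPKM of Slc4a1. Epb42, which encodes a band 3-binding protein related to transglutaminases but without their activity (chr2:121017891-121037072, minus strand), had 79.4 and 104.7 scaled FPKM in Ob against 83.4 and 103.7 in Ob + Exe. Each group held 1 lower and 1 higher library, and the log2 fold change was 0.03 with a standard error of 0.24.

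Epb41 (chr4:131923413-132075321, minus strand) was similar in both groups as a gene and differed between them in its transcripts. The gene had 222 and 226 scaled FPKM in Ob against 180 and 261 in Ob + Exe, with the Ob values between those of Ob + Exe, and a log2 fold change of -0.05 with a standard error of 0.25 in limma. Of its 20 transcripts, 2 held 95.4% to 98.0% of the FPKM in each library. These 2 share 16 exons with 4468 bases, and they differ in the 63-base exon shown above and in 2 exons at the 5′ end, of 142 bases at chr4:132075180-132075321 and of 464 bases at chr4:132006958-132007421. ENSMUST00000137846.7 is annotated as protein-coding, contains the 63-base exon and lacks both upstream exons. ENSMUST00000146021.7 has both upstream exons, lacks the 63-base exon and is annotated as a processed transcript, with no coding sequence.

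The form with the 63-base exon, ENSMUST00000137846.7, had 140.8 and 150.3 scaled FPKM in Ob against 1.24 and 2.95 in Ob + Exe. The form with the upstream exons, ENSMUST00000146021.7, had 76.5 and 68.3 in Ob against 173 and 246 in Ob + Exe. Both Ob libraries were thus high in the first form and both Ob + Exe libraries were almost without it, and the reverse held for the second form. All 8 transcripts that contain the 63-base exon together held 64.4% and 66.9% of the FPKM of Epb41 in Ob against 0.962% and 2.14% in Ob + Exe. The transcript with the 142-base first exon held 34.5% and 30.3% in Ob against 96.4% and 94.2% in Ob + Exe. Replicates of a group differed by at most 4.24 percentage points in these shares, and the groups stood at least 59.7 points apart. Counted in read equivalents, the transcripts with the 63-base exon held 61.9% and 64.5% in Ob against 0.962% and 2.06% in Ob + Exe.

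Such a gap was uncommon in these libraries. Of 5339 genes whose mean FPKM reached 10 and that have more than 1 transcript, 1.63% had a transcript whose share left a gap of 50 percentage points or more between the groups. For Epb41 the widest gap was that of ENSMUST00000137846.7, with 62.4 points. The other 7 genes had gaps of at most 20.0 points for any transcript, and Rhag, Slc4a1 and Sptb had none. The share of all genes with such smaller gaps is not given here, so these are a description only. Counting only part of the transcripts changed what was measured for Epb41. On the most abundant transcript alone the log2 fold change was 1.47 and Epb41 was called (limma, adjusted p = 0.446), where 5.04% of all genes were called. On protein-coding transcripts alone it was -4.64 and Epb41 was called as well, where 3.26% of the genes were called. Limma gave an adjusted p of 0.0264 there, the lowest over all alternatives, which reached up to 1. That setting was added after the data were seen. It leaves out ENSMUST00000146021.7, which is annotated as a processed transcript, so the call is no separate result from the split between the forms. The opposite signs follow from which form is counted.

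The 63-base exon itself was not counted here, since the values are per transcript. With exons matched by exact coordinates, no listed transcript of Epb41 joins the 142-base first exon to the 63-base exon. The 464-base exon is joined to the 63-base exon in 1 transcript. ENSMUST00000105970.7 and ENSMUST00000105975.7 also begin within the 142-base exon, at chr4:132075292. They held at most 0.897% and 0.0558% of the FPKM of Epb41 in any library. How reads from the 142-base exon and from the 63-base exon were divided among the transcripts cannot be seen from these values. Use of the exon, use of the start site and the division of reads by StringTie cannot be told apart from these values.

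**Figure D2:**
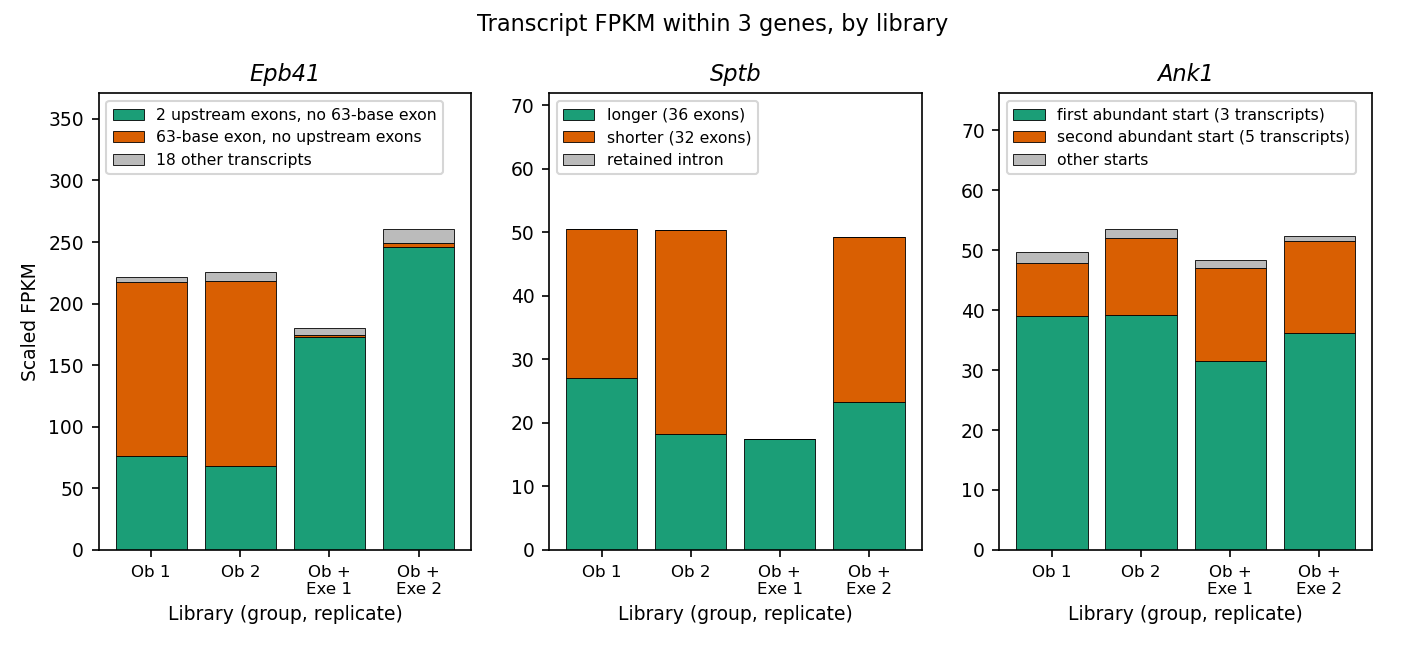
Scaled FPKM of the transcripts of Epb41, Sptb and Ank1, stacked within each library, so that the height of a bar is the level of the gene. For Epb41 the form with the 63-base exon holds 140.8 and 150.3 in Ob against 1.24 and 2.95 in Ob + Exe at similar totals. For Sptb the shorter form is missing in Ob + Exe 1 only, and for Ank1 the first start region holds the larger part in every library.

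Rhag, the ammonia-channel-like partner of the Rh proteins (chr17:40811126-40840754, plus strand), had 126 and 120 scaled FPKM in Ob against 72.4 and 155 in Ob + Exe. The Ob libraries were close to each other, and the Ob + Exe libraries lay on either side of them. The log2 fold change was -0.22 with a standard error of 0.37 (limma, adjusted p = 0.975). Rhd, which encodes the mouse Rh antigen protein (chr4:134864536-134896172, plus strand), had 129 and 114 in Ob against 95.5 and 175 in Ob + Exe, again with Ob + Exe 1 lowest and Ob + Exe 2 highest. Its log2 fold change was 0.09 with a standard error of 0.32. The signs rested on single libraries, since Rhag had 0.32 without Ob + Exe 1 and Rhd had -0.36 without Ob + Exe 2. A single transcript held 98.7% to 99.7% of the FPKM of Rhag, and 1 held 99.8% or more of that of Rhd.

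Kel, whose product is a membrane-bound endopeptidase that carries the Kell antigens (chr6:41686330-41704339, minus strand), went the other way between the libraries. It had 124 and 205 scaled FPKM in Ob against 218 and 133 in Ob + Exe, so that Ob + Exe 1 was its highest library and Ob 1 its lowest. The means of 164.5 ± 57.6 (SD, n = 2) and 175.6 ± 60.1 (SD, n = 2) differed by less than the spread within either group, with a log2 fold change of 0.10 and a standard error of 0.36 in limma. The transcript ENSMUST00000031899.13, with 19 exons, had 87.7 and 133.7 in Ob against 132.3 and 83.6 in Ob + Exe. A short transcript that retains an intron, ENSMUST00000153760.1, held 18.4% and 20.7% of the gene in Ob against 33.1% and 28.3% in Ob + Exe. Because it is only 384 bases long, it held no more than 7.52% of the read equivalents of Kel in any library.

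Across the genes, the spread within Ob + Exe was larger than that within Ob. The median absolute log2 difference between the replicates was 0.13 in Ob and 0.68 in Ob + Exe for the 8 genes, beside 0.22 and 0.37 for 5800 genes whose mean FPKM reached 10. The Ob + Exe 2 over Ob + Exe 1 difference was 1.49 for Sptb, 1.09 for Rhag, 0.87 for Rhd, 0.65 for Slc4a1 and 0.54 for Epb41 on the log2 scale. It was 0.31 for Epb42, 0.11 for Ank1 and -0.71 for Kel. In Ob, Kel with 0.73 and Epb42 with 0.40 differed most, and the other 6 genes differed by at most 0.18 in either direction.

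**Figure D3:**
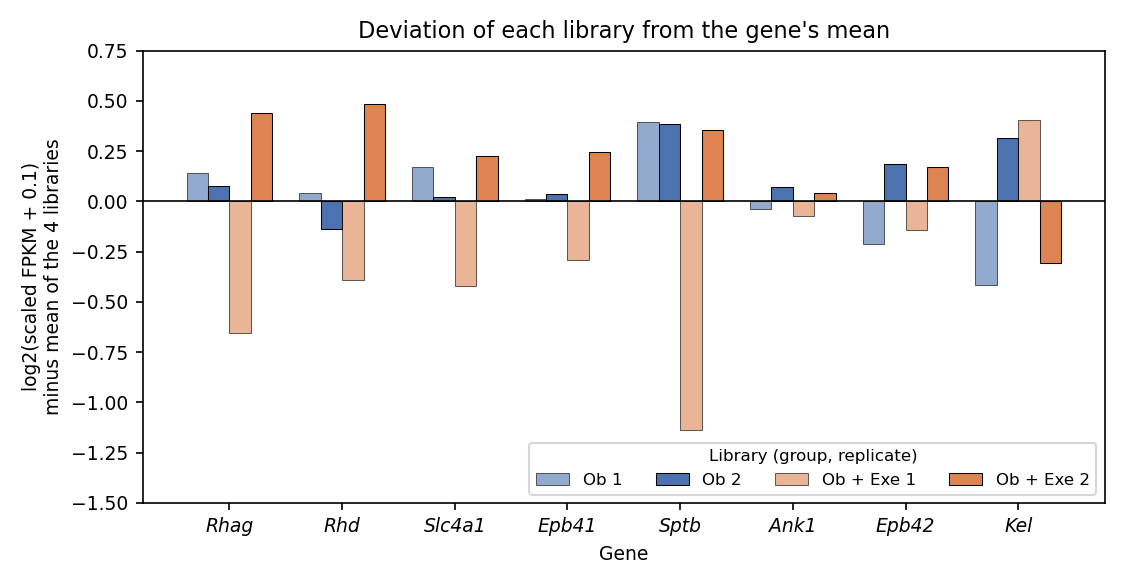
Deviation of log2(scaled FPKM + 0.1) in each library from the mean of the 4 libraries, for each of the 8 genes. Ob + Exe 1 lies below the mean for 7 genes and above it for Kel, and Ob + Exe 2 lies above the mean for those 7 genes and below it for Kel.

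The mean of the erythroid genes differed between the Ob + Exe libraries in the direction of most of the 8 genes, but single erythroid genes did not all follow it. The mean log2 level of 25 early and late erythroid genes that are no members stood at 8.05 and 8.12 in Ob against 7.90 and 8.18 in Ob + Exe, so Ob + Exe 1 was lowest and Ob + Exe 2 highest here as well. None of the 11 early and 14 late erythroid genes tested was called in limma, with medians of -0.17 and 0.06. The 25 genes include Gata1 and Klf1, transcription factors of the red cell lineage, with log2 fold changes of 0.16 and -0.17. They also include Epor, the erythropoietin receptor, with -0.21, Tfrc, the transferrin receptor, with 0.08, and Alas2, the first enzyme of erythroid heme synthesis, with -0.11. The globin genes Hba-a1 and Hbb-bs had -0.16 and -0.12, with standard errors of 0.53 and 0.69. Klf1, Tfrc and Hbb-bs were lowest in Ob + Exe 1 and highest in Ob + Exe 2, like the mean. Gata1 was instead highest in Ob + Exe 1, with 98.3 scaled FPKM. Alas2 and Hba-a1 were lowest in Ob + Exe 2, with 721 and 20060, and Epor was lowest in Ob 1, with 53.3.

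Taken relative to this erythroid mean in the same library, the difference between Ob + Exe and Ob was -0.73 on the log2 scale for Sptb and lay between -0.17 and 0.14 for the other 7 genes. Rhag still differed between Ob + Exe 1 and Ob + Exe 2, with relative log2 values of -1.72 and -0.90, and Sptb did with -3.77 and -2.55. Slc4a1 stood above the erythroid mean in every library, by 0.14 to 0.58. Neutrophil markers moved between the libraries too, and their 10 genes summed to 49276 and 28106 scaled FPKM in Ob against 36709 and 66064 in Ob + Exe. The 6 megakaryocyte and platelet markers summed to 456 and 332 in Ob against 371 and 139 in Ob + Exe, and the 8 B cell markers to 199 and 207 in Ob against 159 and 126 in Ob + Exe. The part of the cell composition in the values of the 8 genes was not tested.

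**Figure D4:**
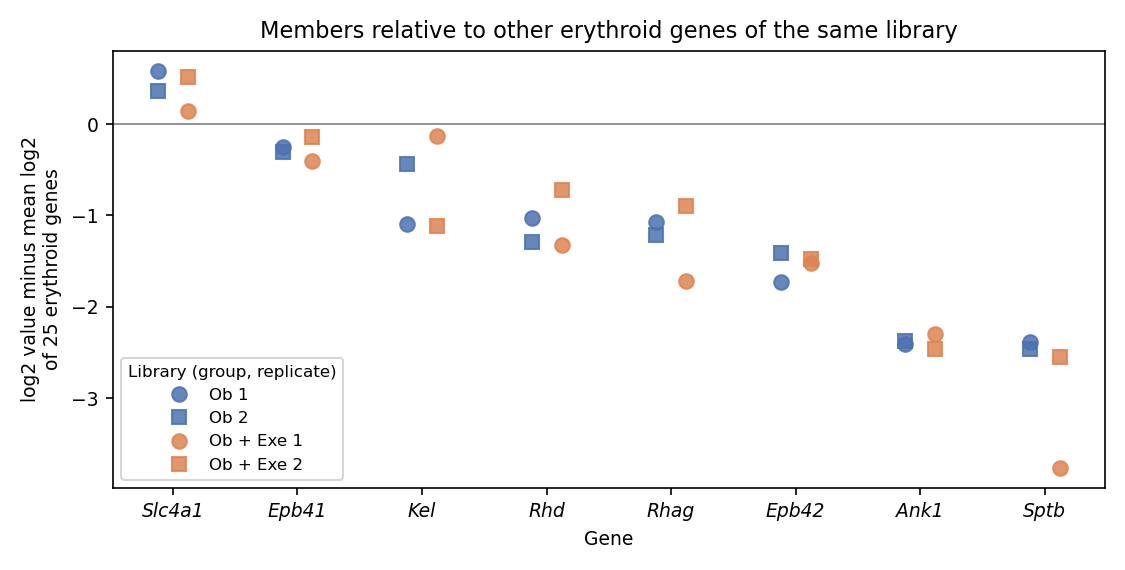
Log2 level of each of the 8 genes minus the mean log2 level of 25 other erythroid genes in the same library, with the line at 0 marking that mean. The points of Ob + Exe 1 for Sptb lie at -3.77, apart from the other 3 libraries between -2.55 and -2.38, and the groups overlap for the other 7 genes.

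None of the other genes of the skeleton was called either. Of 12 partners of the net, 6 had positive and 6 had negative log2 fold changes in limma, and the median was -0.05. The most abundant of them was Actb, the beta-actin that forms the short filaments of the junction and is also made by every other marrow cell, with 1794 and 1586 scaled FPKM in Ob against 1826 and 1952 in Ob + Exe. Tpm3, a tropomyosin that lines these filaments, had a log2 fold change of 0.27 with a standard error of 0.20, and Stom, the stomatin of the membrane, had 0.15 with 0.21.

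Of 16 other membrane proteins of the red cell, 7 had positive and 9 had negative log2 fold changes, none was called in limma, and the median was -0.04. Bsg, the Ok blood group protein basigin, had 258 and 256 scaled FPKM in Ob against 227 and 247 in Ob + Exe. Aqp1, the water channel, had 226 and 179 in Ob against 112 and 218 in Ob + Exe, with a log2 fold change of -0.36 and a standard error of 0.36. Xk, which is joined to the Kell protein by a disulfide bond, had a log2 fold change of -0.09 with a standard error of 0.32, beside 0.10 for Kel. Xk is named as the direct partner of Kel, and was added after its values were seen.

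The mean pattern of the 8 genes over the 4 libraries, on the log2 scale and centred for each gene, stood at 0.01 and 0.12 in Ob against -0.34 and 0.21 in Ob + Exe. Of 12401 other genes whose mean FPKM reached 1, Micos10, a subunit of the mitochondrial cristae complex, was closest to it, at a Euclidean distance of 0.0187. The next were Nfxl1 at 0.0225, Poc1b, a centriole protein, at 0.0257, Rock2, a protein kinase, at 0.0350 and Rrm2, the small subunit of ribonucleotide reductase, at 0.0442. This is a likeness over 4 libraries of a table with many genes, and it is given as a description.

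As background, GATA1 and KLF1 are the factors under which most of these genes are switched on, GATA1 binds GATAA (or TTATC on the other strand) and KLF1 binds CCNCNCCC (or GGGNGNGG). Windows of 300 bases around the RefSeq starts, from 250 bases before to 50 after, were searched on both strands for 6 of the 8 genes, in 8 windows of GRCm38. Ank1 and Slc4a1 were not searched. GATAA was found for 4 genes, namely Epb42, Rhag, Rhd and Kel, in 4 of the 8 windows, and is in 25.4% of 32851 mouse windows. CCNCNCCC was found for 3 genes, namely Sptb, Epb41 and Rhd, also in 4 of the 8 windows, and is in 49.5% of the mouse windows. The motifs share no bases with each other where they occur together in the window of Rhd. The start of the abundant transcript lies within 23 bases of a RefSeq start for Rhag, Rhd, Kel, Sptb and Epb41. Of these, the bases before the annotated start are shown only for Rhag, Rhd and Kel, whose windows hold GATAA. They are given in the direction of transcription, with GATAA or TTATC in capitals.
Rhag, chr17:40810899-40811125, plus strand: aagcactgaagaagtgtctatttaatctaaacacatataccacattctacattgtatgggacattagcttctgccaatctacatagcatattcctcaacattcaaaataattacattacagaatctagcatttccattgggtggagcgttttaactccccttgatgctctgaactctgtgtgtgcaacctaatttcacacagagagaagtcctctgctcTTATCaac
Rhd, chr4:134864286-134864535, plus strand: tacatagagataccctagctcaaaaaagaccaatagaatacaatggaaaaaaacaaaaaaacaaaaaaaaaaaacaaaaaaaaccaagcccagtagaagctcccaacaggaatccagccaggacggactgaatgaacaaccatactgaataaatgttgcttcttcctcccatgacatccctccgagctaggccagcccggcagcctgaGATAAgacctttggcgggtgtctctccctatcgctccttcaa
Kel, chr6:41704340-41704575, minus strand: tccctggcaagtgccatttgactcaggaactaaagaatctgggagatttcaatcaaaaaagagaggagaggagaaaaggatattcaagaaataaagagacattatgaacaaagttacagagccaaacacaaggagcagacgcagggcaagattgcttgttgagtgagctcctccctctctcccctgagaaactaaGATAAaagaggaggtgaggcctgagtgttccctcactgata
In each of the 3 sequences 1 match is marked, and it lies within the last 50 bases before the start. The window of Kel holds 2 matches of GATAA, and the other does not lie wholly before the start, so it is not shown. Rhag and Rhd shared the order of the libraries, with Ob + Exe 1 lowest and Ob + Exe 2 highest, and Kel had the reverse order of the Ob + Exe libraries with the same match. A match of these letters is no evidence of binding, and the binding of either factor was not measured here.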

How the data were processed

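Bone marrow RNA of 2 Ob and 2 Ob + Exe mice was sequenced as 150-base pairs. The authors aligned the reads to GRCm38 with HISAT2 and ran StringTie on the GENCODE vM25 transcripts, and they deposited the FPKM and the mean read coverage (a signal) of each transcript per library. Here FPKM were summed per gene, scaled with median-of-ratios factors and tested as log2(FPKM + 0.1) with limma 3.58.1 (R 4.3.3) and an intensity trend, group only, over genes whose mean FPKM reached 0.1. Fold changes on this scale understate the change of low genes. Read equivalents are coverage times length over 150 and are no whole counts. Exons and types came from GENCODE vM21 (60 of 62 transcripts with the same coordinates), promoters from RefSeq (GRCm38.p6). The script was tested on simulated data. The 8 genes, lists and tests were chosen with earlier results of these data known. Named by rule were the 8 genes, the 3 most abundant genes of each membrane list, the 5 most alike genes and 8 erythroid genes. Some named genes are not reported here. Alternatives covered pseudocount, low-value filter, scaling, test, transcripts, replicate block and leaving out each library.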

Additional observations from a re-analysis of the deposited data

How the results depend on the processing

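None of the 8 genes was called with another pseudocount, low-value limit, scaling or test. One was called on the most abundant transcript only and 1 on protein-coding transcripts only, both times Epb41 (1.47 and -4.64), and from 0 to 1 when a library was left out, Sptb without Ob + Exe replicate 2. The median log2 fold change of the 8 genes ran from -0.34 to 0.15 when a library was left out, and genes called in the whole table from 599 to 1851, with 696 as reported, 222 with a pseudocount of 1, 267 with a mean FPKM limit of 1, 459 with voom, 1060 without the trend and 428 on protein-coding transcripts. Signs turned for Ank1 (0.00982), Epb41 (0.0480) and Kel (-0.016) with voom, for Epb42 without scaling (-0.0596), with quantile normalization (-0.0072) and with totals without the 10 most abundant genes (-0.0213), and for Kel on the most abundant (-0.0875) and the protein-coding transcripts (-0.0303). Leaving out a library gave log2 fold changes from -1.54 to -0.04 for Sptb, -0.10 to 0.0138 for Ank1, -0.53 to 0.12 for Slc4a1, -0.33 to 0.21 for Epb41, -0.18 to 0.22 for Epb42, -0.78 to 0.32 for Rhag, -0.36 to 0.52 for Rhd and -0.28 to 0.45 for Kel. The cause was not tested. Of the relatives, 1 was called on the most abundant transcript, and from 0 to 1 without a library, as for the membrane proteins. The share of Epb41 transcripts with the 63-base exon differed by -61.7 points in read equivalents, against -64.1 in FPKM. The share of the shorter Sptb transcript differed by -28.7 points, by -2.30 without Ob + Exe replicate 1 and by -55 without Ob + Exe replicate 2, and that of the first Ank1 start by -8.80 points, from -11.6 to -6.00 when a library was left out. The methods of the study describe no pairing by replicate number, and 2 libraries per group cannot decide it (correlation of replicate differences -0.106, and -0.235 over 12409 genes with a mean FPKM limit of 1). With the replicate block, no fold change moves, 742 genes passed the thresholds and 18 reached an adjusted p of 0.05 in limma, none of them among the 8. With the crossed pairing, added after seeing the data like the protein-coding restriction, 803 and 11 did.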

Other observations

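Relatives of the 8 genes that serve other cells were low in the same libraries. The 26 relatives (other spectrins, ankyrins, bicarbonate transporters, band 4.1-type genes, transglutaminases, Rh family genes and endopeptidases related to Kel) summed to 66.6 and 67.5 scaled FPKM in Ob against 70.4 and 71.3 in Ob + Exe, so that all of them together stood below Slc4a1 alone. Of these, 20 passed the low-value limit, 8 with positive and 12 with negative log2 fold changes, and none was called in limma, with a median of -0.09. Rhbg, the Rh glycoprotein of kidney and liver, was listed at 0 in all libraries. Sptbn1, the beta-spectrin of most nucleated cells, was the most abundant, at 16.4 and 14.1 in Ob against 14.5 and 15.9 in Ob + Exe. Slc4a2, the widely expressed anion exchanger, had 10.6 and 12.8 in Ob against 14.6 and 11.8 in Ob + Exe. Tgm2, the tissue transglutaminase, had 7.53 and 7.94 in Ob against 11.1 and 11.4 in Ob + Exe, with a log2 fold change of 0.53 and a standard error of 0.23 (limma, adjusted p = 0.959).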
